A study of Homo sapiens with 4 samples.

Results

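The 10 genes of polyamine synthesis and catabolism were followed in MV4-11, an established human line of acute myeloid leukemia, after knockdown of the transcription factor IRF1. They were taken by symbol from the 23622 genes of the deposited table, and earlier results of these data were known when they were chosen. All 10 were present. They are 4 synthesis enzymes (ODC1, AMD1, SRM and SMS), 3 regulators (OAZ1, OAZ2 and AZIN1) and 3 catabolic enzymes (SAT1, PAOX and SMOX). Total RNA was sequenced in 2 control libraries (sh-NC) and 2 knockdown libraries (sh-IRF1). Both groups are labelled as wild-type MV4-11 cells. The labels list no treatment for the controls, while the methods and the column names describe a control hairpin. Per the methods, short hairpin RNAs were delivered by lentivirus in the pLKO.1 vector, and infected cells were selected with puromycin. The study lists 2 hairpins against IRF1 and the labels do not say which of them each sh-IRF1 library carried, so an effect of a single hairpin cannot be told apart from an effect of lower IRF1. Nothing states that the libraries came from separate cultures, so each p-value measures only the spread between these libraries.

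Polyamines are small, positively charged molecules that bind nucleic acids and are needed for cell growth. Putrescine is made from ornithine by ornithine decarboxylase (ODC1), and spermidine synthase (SRM) and spermine synthase (SMS) then add aminopropyl groups that come from S-adenosylmethionine through its decarboxylase (AMD1). Antizymes (OAZ1, OAZ2) bind ornithine decarboxylase and send it to the proteasome, and the antizyme inhibitor (AZIN1), a relative of the enzyme without its activity, takes the antizymes up. Breakdown runs through acetylation by SAT1 followed by oxidation by PAOX, or through direct oxidation of spermine by SMOX. ODC1 is a textbook target of MYC, and high polyamine synthesis is a known trait of dividing leukemia cells.

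Each library held between 17635908 and 18695337 reads, recovered from the deposited values, and mitochondrial genes took between 3.92% and 4.51% of them. Replicate libraries differed by more than sampling noise, with a mean chi-square per gene of 2.93 between the controls and 2.47 between the knockdown libraries. All 9 myeloid and leukemic markers checked were present in every library with at least 10 normalized counts, and their sum ran from 30039 to 30223 in sh-NC and from 27481 to 27523 in sh-IRF1. FLT3, a receptor kinase of leukemic blasts, held most of that sum and fell from 17391 and 17412 to 12745 and 12634 (adjusted p = 2.75e-19, limma). Without it the other 8 summed to 12832 and 12627 in sh-NC and to 14777 and 14847 in sh-IRF1. Their sum was thus higher in the knockdown, but they did not all rise. LYZ rose from 1824 and 1785 to 3276 and 3218 (adjusted p = 3.83e-20, limma). CSF3R rose from 1166 and 1106 to 1550 and 1525 (adjusted p = 6.59e-08). SPI1 rose from 5719 and 5472 to 6247 and 6376 (adjusted p = 6.46e-05). MPO fell from 477 and 443 to 185 and 158 (adjusted p = 7.78e-13). CSF1R was lower without overlap, at 942 and 938 in sh-NC and 805 and 846 in sh-IRF1. HOXA9 was also lower without overlap, at 745 and 757 in sh-NC and 703 and 731 in sh-IRF1. Such separation held for 69.2% of all genes tested. CD33 and MEIS1 overlapped between the groups. Markers of other cells were low: the T cell list summed to at most 2.81 normalized counts in any library, the B cell list to at most 77.0, and 0 of 3 erythroid markers were listed. The fibroblast and epithelial list, carried by KRT18 and KRT8, summed to 258 to 345 in sh-NC and 362 to 397 in sh-IRF1. The part of these differences in the results was not tested. IRF1, the targeted gene, had 785 and 738 normalized counts under sh-NC and 430 and 432 under sh-IRF1, or 56.6% of the level in controls (log2 fold change -0.82, SE 0.0904, adjusted p = 1.69e-10, limma). Of its exonic bases 22.9% are shared, mainly with IRF1-AS1 on the opposite strand, and the strand setting of the counting is not known. MYC, a driver of growth, was at 14198 and 14561 in sh-NC and at 7380 and 7348 in sh-IRF1 (log2 fold change -0.97, SE 0.0297, adjusted p = 1.03e-29). A normalized count is the number of reads of a gene divided by the size factor of its library. The smallest p of an exact permutation test (two-sided) in this design is 0.33, so every call rests on limma, which shares the spread across the 14120 genes tested.

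Promoter windows of RefSeq (GRCh38.p14), each from 250 bases before to 50 bases after a transcript start, were found for 7 of the 10 genes, in 10 windows. They were searched on both strands for CACGTG, the E-box that MYC and MAX bind, and for GAAA, any 2 bases and GAAA again, the core of sites that IRF proteins bind. The stretches with a match are shown because they place both kinds of site beside the genes whose levels are given next. Capitals mark the matches, and the sequence runs 5′ to 3′ on the strand of the gene.
SRM, chr1:11060177-11060252, minus strand: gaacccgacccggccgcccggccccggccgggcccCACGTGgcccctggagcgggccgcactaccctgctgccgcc
ODC1, chr2:10447993-10448076, minus strand: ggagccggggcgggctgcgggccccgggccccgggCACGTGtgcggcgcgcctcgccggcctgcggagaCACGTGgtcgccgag
OAZ1, chr19:2269325-2269410, plus strand: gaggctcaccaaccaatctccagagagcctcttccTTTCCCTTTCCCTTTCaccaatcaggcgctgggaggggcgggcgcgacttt

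The E-box of SRM begins at -199 from the transcript start, upstream of the gene. Both E-boxes of ODC1 lie in intron 1 of its canonical transcript in GENCODE 44 and flank the start of a shorter RefSeq transcript, at -29 and 6 from that start. The window at the main ODC1 start held neither motif. The OAZ1 window held 2 overlapping matches to the IRF core on the opposite strand, starting at -126 and -120, which together read as repeats of TTTC upstream of the gene. Windows of AMD1, SMS, OAZ2 and SAT1 held neither set of letters, and AZIN1, PAOX and SMOX were not among the windows. Among all 35116 windows 7.26% held CACGTG and 3.57% held the IRF core, while 0.664% held at least 2 E-boxes and 0.259% at least 2 IRF cores. A match is a stretch of letters and was not tested for binding here.

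Of the 10 genes, 6 fell in the sh-IRF1 libraries at an adjusted p under 0.05 and 0 rose. All 4 synthesis enzymes fell, together with the antizyme OAZ1 and the oxidase PAOX. Among all 14120 genes tested, 21.9% fell and 20.3% rose by the same rule. That balance turned when reads were scaled by library totals alone, with 2647 genes that fell and 3428 that rose, against 3092 and 2861. Most of the members' differences were small: only SMS and PAOX fell with a log2 fold change beyond 0.5, as did 7.56% of all genes, and 0 members rose beyond that size, against 8.27% of all genes. Across the 10 genes the log2 fold change had a median of -0.16 and ran from -0.86 for PAOX to 0.16 for SMOX, and that of all genes tested was -0.0019. The 0 for members that rose holds for an unadjusted p under 0.05 and for edgeR and DESeq2 as well. The 6 that fell were also 6 by edgeR and were 5 by DESeq2, which did not call PAOX (adjusted p = 0.0631). With the trend and robust settings of limma off, but the spread still shared across genes, only SMS and OAZ1 were called, at an adjusted p of 0.0265 and 0.0336. Values are relative within a library, so neither the number of cells nor the total RNA per cell can be read from them. The 4 libraries separated by group without overlap for 7 of the 10 genes, the 6 and SMOX, and for 69.2% of all genes tested.

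**Figure D1:**
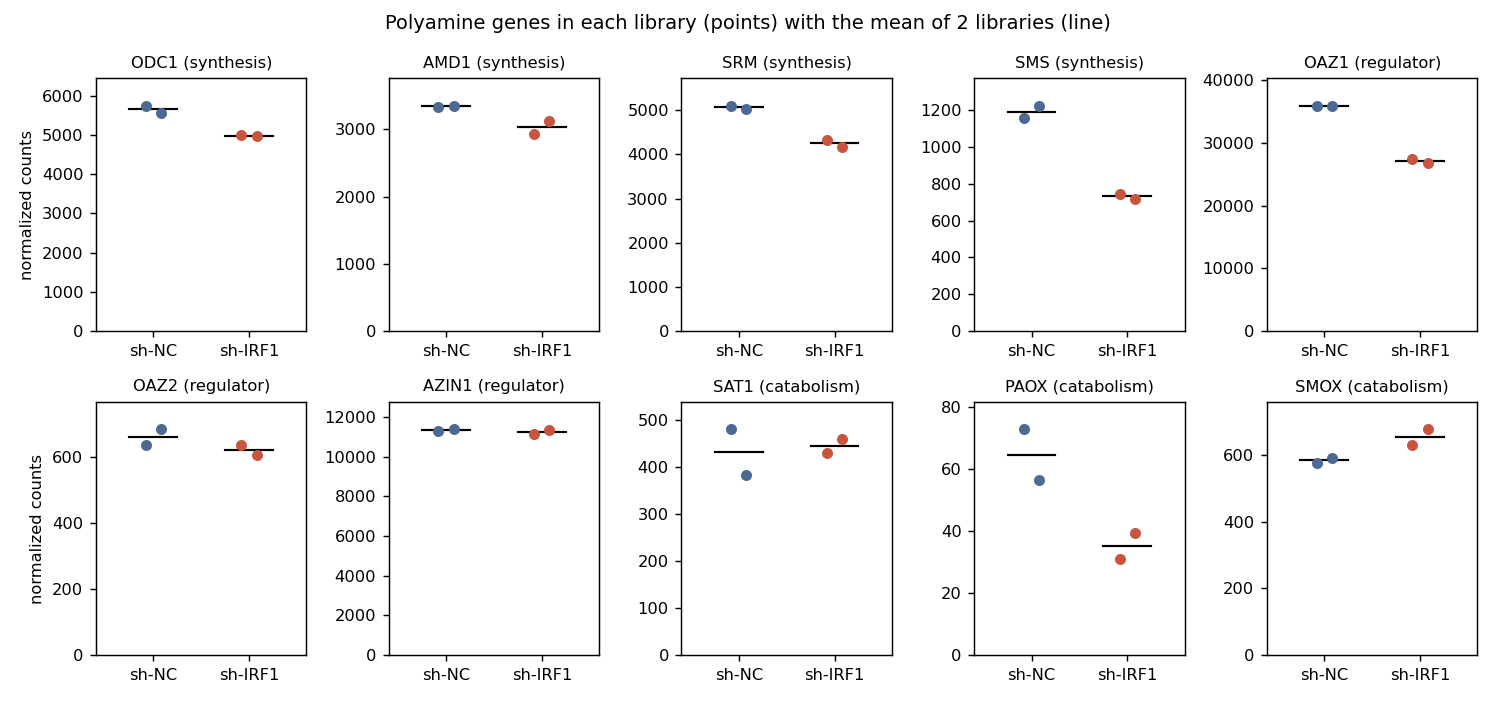
Normalized counts of the 10 polyamine genes in each library, with an axis from 0 in each panel. Points are libraries, 2 for sh-NC and 2 for sh-IRF1, and lines are their means. The sh-IRF1 points lie below the sh-NC points for ODC1, AMD1, SRM, SMS, OAZ1 and PAOX, above them for SMOX, and among them for OAZ2, AZIN1 and SAT1.

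To compare one gene with another, reads were divided by the length of the union of a gene's exons and by the library total, giving values in RPKM. OAZ1 led by far on this scale, at an RPKM of 577 ± 2.11 in sh-NC (SD, n = 2), followed by SRM at 148 ± 1.89, AZIN1 at 102 ± 0.296 and ODC1 at 94.3 ± 2.52. SMS stood at 30.9 ± 1.17 and AMD1 at 18.1 ± 0.0437. The remaining genes were lower still, with SMOX at 10.9 ± 0.170, SAT1 at 9.61 ± 1.56, OAZ2 at 4.75 ± 0.243 and PAOX at 1.59 ± 0.286. SMOX and SAT1, neighbours in this order, differed by less than the spread of SAT1. The first 4 places and the last did not move when the length of the canonical transcript was used instead, but AMD1 then stood above SMS, at 54.0 against 38.6, and SAT1 and OAZ2, at 22.7 and 18.8, above SMOX at 14.9.

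**Figure D2:**
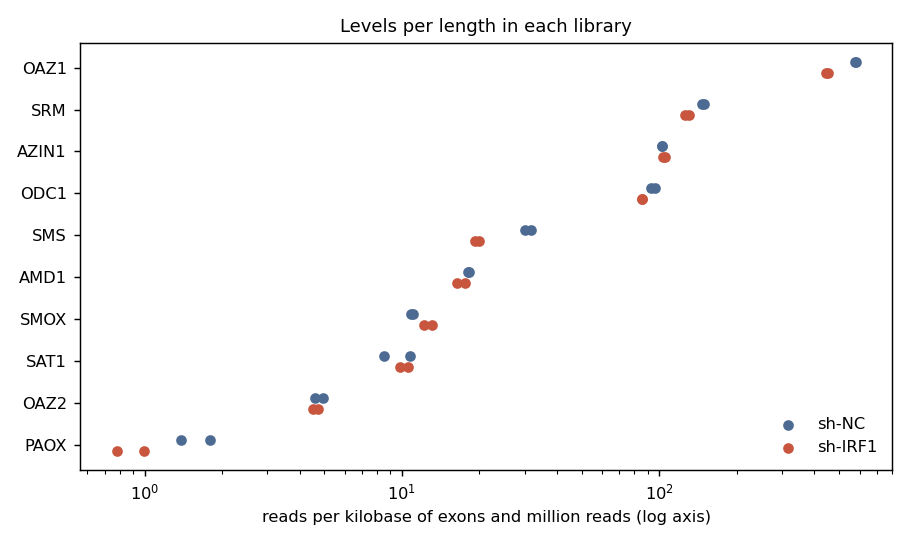
Levels per length of the 10 genes in each library, in RPKM on a log axis, ordered by their mean in sh-NC. The order runs from OAZ1, at 577 in sh-NC, to PAOX, at 1.59.

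SMS, which turns spermidine into spermine, had the largest fall of the synthesis enzymes. The sh-NC libraries held 1158 and 1224 normalized counts of it and the sh-IRF1 libraries 747 and 720. Both knockdown values lay far below both controls, and 61.6% of the level in controls was left. This is a log2 fold change of -0.70 (SE 0.0717, adjusted p = 2.30e-11, limma), with a 95% interval from -0.84 to -0.55. SMS (ENSG00000102172) lies on chromosome X from 21940709 to 21994837 of GRCh38 in GENCODE 44 and shares no exonic base with another gene.

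SRM, which makes the spermidine that SMS uses, fell less. Its values were 5106 and 5026 in sh-NC and 4333 and 4170 in sh-IRF1, without overlap, and 83.9% of the level in controls was left. This is a log2 fold change of -0.25 (SE 0.0379, adjusted p = 2.65e-07). SRM (ENSG00000116649, chromosome 1, 11054584 to 11060020) and SMS catalyse consecutive steps, and their proportion differed between the groups. There were 4.41 and 4.10 SRM normalized counts for each of SMS in the sh-NC libraries and 5.80 and 5.79 in the sh-IRF1 libraries.

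ODC1, the entry enzyme of the pathway, was at 5745 and 5544 normalized counts in sh-NC and at 4998 and 4958 in sh-IRF1. Every knockdown value was below every control value, and 88.2% of the level in controls was left (log2 fold change -0.18, SE 0.0362, adjusted p = 5.16e-05). ODC1 (ENSG00000115758, chromosome 2, 10439968 to 10448327) carries the E-box pair shown above, and MYC itself was at 51.2% of its control level in these libraries. Whether the difference in ODC1 or SRM follows from MYC was not tested.

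AMD1, which supplies decarboxylated S-adenosylmethionine for both later steps, had the smallest of the called differences. It was at 3338 and 3357 in sh-NC, which lie close together, and at 2937 and 3129 in sh-IRF1, which lie further apart. The mean was 90.6% of that in controls (log2 fold change -0.14, SE 0.0434, adjusted p = 0.00640). This call rests on sh-IRF1 replicate 1, since without that library the log2 fold change was -0.098 with an adjusted p of 0.175. It was also lost when reads were scaled by library totals alone (adjusted p = 0.0613). AMD1 (ENSG00000123505) lies on chromosome 6 from 110874770 to 110898879.

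**Figure D3:**
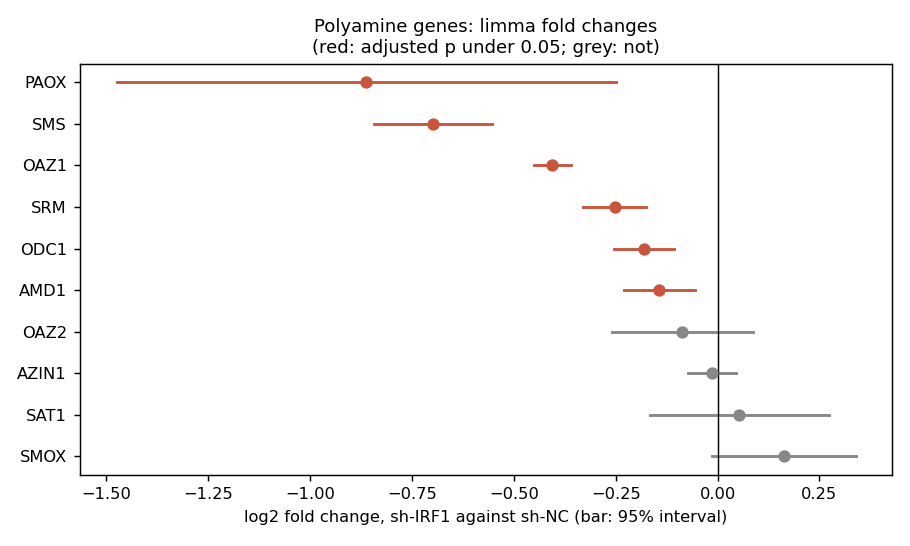
Log2 fold changes of the 10 genes, sh-IRF1 against sh-NC, from limma on log2(normalized count + 1), with 95% intervals as bars. Red marks an adjusted p under 0.05, which PAOX, SMS, OAZ1, SRM, ODC1 and AMD1 reached, all below 0. The interval of PAOX, from -1.48 to -0.25, is the widest, and that of OAZ1, from -0.45 to -0.36, the narrowest.

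OAZ1, the main antizyme by level, had the smallest p of the 10 genes. The sh-NC libraries held 35931 and 35824 normalized counts and the sh-IRF1 libraries 27411 and 26757. The replicates lay close together and the groups far apart, and 75.5% of the level in controls was left (log2 fold change -0.41, SE 0.0225, adjusted p = 3.51e-20). It ranked 132 by p among the 14120 genes tested, although 32.1% of them had a larger log2 fold change in either direction. OAZ1 (ENSG00000104904, chromosome 19, 2269509 to 2273490) shares 6.87% of its exonic bases with other genes, mainly with JSRP1 on the opposite strand, which had at most 2 reads in any library. Antizyme protein is made only when ribosomes shift frame on its transcript, a step that transcript levels do not show.

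OAZ2, the second antizyme, was at 635 and 684 in sh-NC and at 636 and 606 in sh-IRF1. The groups overlapped, and the log2 fold change of -0.086 had a 95% interval from -0.26 to 0.087 (adjusted p = 0.451). There were 56.6 and 52.4 OAZ1 normalized counts for each of OAZ2 in sh-NC and 43.1 and 44.1 in sh-IRF1.

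AZIN1, the antizyme inhibitor, showed no difference beyond its spread. Its values were 11305 and 11376 in sh-NC and 11121 and 11342 in sh-IRF1, which overlap. The log2 fold change was -0.014 (adjusted p = 0.732), with a 95% interval from -0.072 to 0.044. The sign was not settled, since it was 0.030 when reads were scaled by library totals alone and 0.00020 without sh-IRF1 replicate 1.

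The inhibitor stood higher relative to the antizyme in the knockdown. There were 0.315 and 0.318 AZIN1 normalized counts for each of OAZ1 in sh-NC and 0.406 and 0.424 in sh-IRF1, or 131% of the control ratio. ODC1 relative to OAZ1 was also higher although ODC1 itself fell. It went from 0.160 and 0.155 in sh-NC to 0.182 and 0.185 in sh-IRF1, or 117% of the control ratio. Both ratios divide by OAZ1, which stood at 75.5% of its control level, so they are not separate results. Neither ratio overlapped between the groups, nor did the others of the 6 pairs formed. Among all single genes tested 69.2% did not overlap. The ratios are of transcripts and were not tested further.

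**Figure D4:**
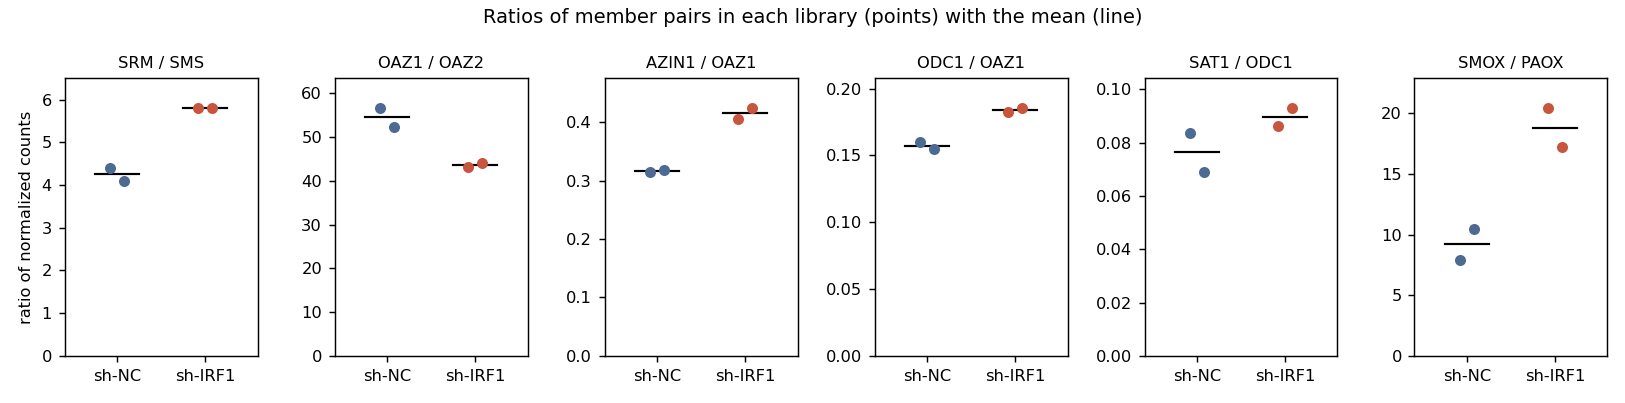
Ratios of normalized counts for 6 pairs of polyamine genes in each library, with an axis from 0 in each panel. Points are libraries and lines their means. The ratios AZIN1 to OAZ1, ODC1 to OAZ1, SRM to SMS, SAT1 to ODC1 and SMOX to PAOX are higher in both sh-IRF1 libraries, and OAZ1 to OAZ2 is lower.

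SAT1, the acetyltransferase that starts the back-conversion of spermine and spermidine, showed no difference beyond its spread. It was at 481 and 383 in sh-NC, a wide gap between replicates, and at 431 and 461 in sh-IRF1, which fall between those values. The log2 fold change of 0.054 had a 95% interval from -0.17 to 0.27 (adjusted p = 0.728) and turned to -0.11 without sh-NC replicate 2. The ratio of SAT1 to ODC1 was 0.0837 and 0.0691 in sh-NC and 0.0862 and 0.0930 in sh-IRF1, so the closest values of the groups nearly met. SAT1 (ENSG00000130066) lies on chromosome X from 23783173 to 23786210.

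PAOX, the peroxisomal oxidase of acetylated polyamines, had the largest fitted fall of the 10 genes on the fewest reads. It had 71 and 55 reads in the sh-NC libraries and 31 and 42 in the sh-IRF1 libraries, or 72.8, 56.5, 30.8 and 39.4 normalized counts. All values are low, the groups did not overlap, and 54.3% of the level in controls was left (log2 fold change -0.86, SE 0.305, adjusted p = 0.0193). The call did not hold without sh-NC replicate 1 (log2 fold change -0.68, adjusted p = 0.156) or without sh-IRF1 replicate 1 (-0.69, adjusted p = 0.149). In GENCODE 44 (ENSG00000148832, chromosome 10, 133379261 to 133391694) 61.0% of its exonic bases are shared, mainly with a gene without a symbol on the same strand, so its reads are uncertain.

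SMOX, the spermine oxidase, was at 576 and 591 in sh-NC and at 630 and 677 in sh-IRF1. Both knockdown values were above both controls, but the log2 fold change of 0.16 (SE 0.0874, adjusted p = 0.134) did not pass the test, with a 95% interval from -0.014 to 0.34. SMOX to PAOX stood at 7.92 and 10.5 in sh-NC and at 20.4 and 17.2 in sh-IRF1, a ratio that rests on the few reads of PAOX. SMOX (ENSG00000088826) lies on chromosome 20 from 4120980 to 4187747.

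Around the 10 genes, 52 genes of 6 related lists were examined, of which 37 had enough reads for the test. Of these, 5 rose and 12 fell at an adjusted p under 0.05, beside 20.3% and 21.9% of all genes tested. Beyond a log2 fold change of 0.5, 2 rose and 5 fell, beside 8.27% and 7.56% of all genes. The 37 genes had a median log2 fold change of -0.17, against -0.0019 for all genes tested. Without the trend and robust settings of limma, 2 of the 37 rose and 9 fell. Fewer rose, and fewer fell, when either sh-IRF1 library was left out. The largest difference was a rise in AOC1, the diamine oxidase that degrades putrescine. It was at 93.3 and 90.4 normalized counts in sh-NC and at 308 and 339 in sh-IRF1, or 352% of the control level (log2 fold change 1.80, SE 0.162, adjusted p = 4.07e-13). ALDH9A1, an aldehyde dehydrogenase that oxidizes the aminobutyraldehyde formed from putrescine, fell instead, from 1665 and 1710 to 1102 and 999 (log2 fold change -0.68, SE 0.0624, adjusted p = 7.00e-13). MAOA, the third tested gene of that list, had at most 11.3 normalized counts in any library and an adjusted p of 0.557.

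The 5 transport genes with enough reads had a median log2 fold change of -0.61. Of these, 3 fell and 0 rose, beside 21.9% and 20.3% of all genes tested. The 0 holds for an unadjusted p under 0.05 from limma and for an adjusted p from edgeR and DESeq2. ATP13A2, which exports polyamines from lysosomes, fell from 1385 and 1481 to 602 and 584, to 41.4% of its level in controls (log2 fold change -1.27, SE 0.0723, adjusted p = 8.66e-20). Its relative ATP13A3, a polyamine uptake pump, fell from 4198 and 4118 to 2613 and 2831 (log2 fold change -0.61, SE 0.0434, adjusted p = 2.12e-16). The third was SLC3A2, at 82.3% of its control level.

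**Figure D5:**
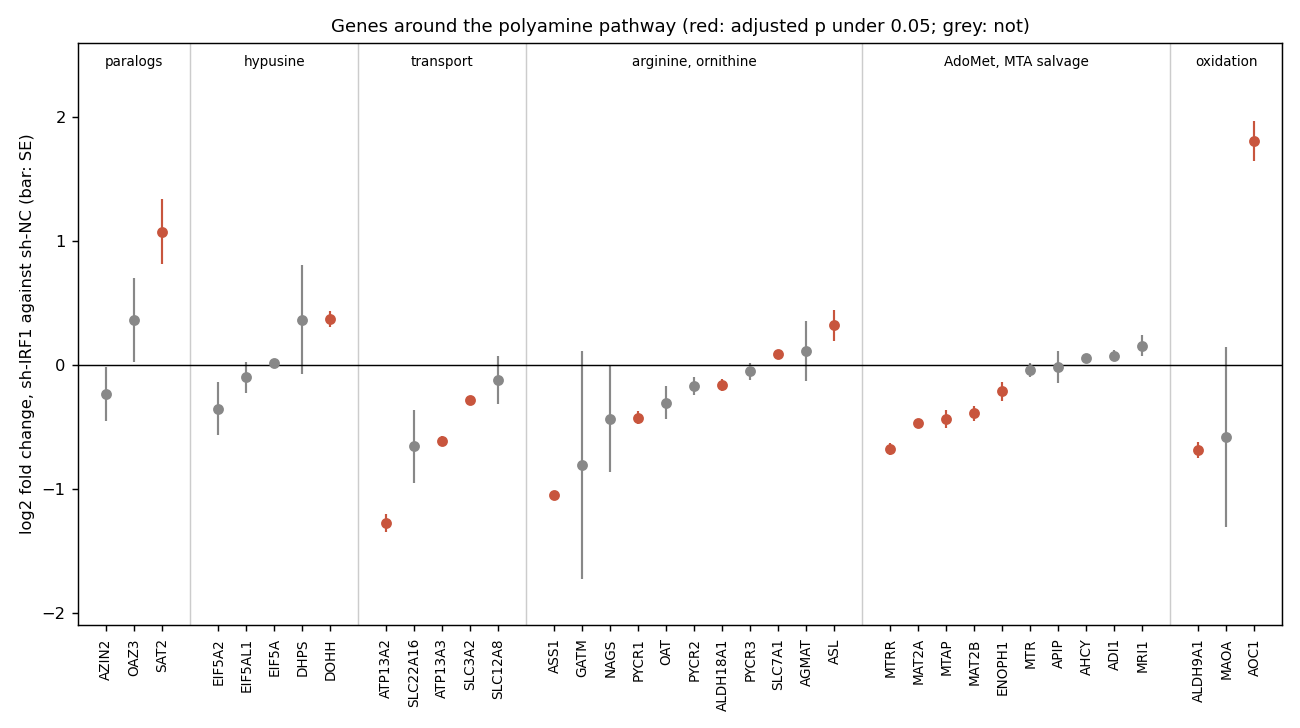
Log2 fold changes, sh-IRF1 against sh-NC, of the 37 tested genes of the 6 related lists, with 1 SE as bars. Red marks an adjusted p under 0.05. AOC1 lies highest at 1.80 and ATP13A2 lowest at -1.27.

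Genes around the supply of the precursors were read in the same way. In the arginine and ornithine list, 3 of 11 tested genes fell and 2 rose, with a median log2 fold change of -0.17. Among all genes tested 21.9% fell and 20.3% rose by the same rule, so these counts lie near the shares of all genes. ASS1, which makes argininosuccinate on the way to arginine, fell from 8812 and 9257 normalized counts to 4471 and 4245, to 48.2% of its level in controls (log2 fold change -1.05, SE 0.0357, adjusted p = 2.81e-28). PYCR1, which makes proline, and ALDH18A1, of proline and ornithine synthesis, were the others that fell, at 74.5% and 89.5% of their control levels. Of the exonic bases of PYCR1 29.7% are shared, mainly with a gene on the opposite strand. SLC7A1, an arginine transporter, and ASL, which releases arginine, rose to 106% and 125%, the second of them not by DESeq2 (adjusted p = 0.0914). In this list 0 genes rose without the trend and robust settings of limma. Neither rise kept its call when either sh-IRF1 library was left out. The arginases that release ornithine, ARG1 and ARG2, had too few reads for the test. The list of S-adenosylmethionine supply and methylthioadenosine salvage had a median log2 fold change of -0.12. Of its 10 tested genes 5 fell and 0 rose, beside the 21.9% and 20.3% of all genes. The 0 holds for an unadjusted p under 0.05 from limma and for an adjusted p from edgeR and DESeq2, but not under every setting. AHCY, which clears S-adenosylhomocysteine, was called higher when reads were scaled by library totals alone (log2 fold change 0.10, adjusted p = 0.0134, limma) and without sh-NC replicate 2 (0.094, adjusted p = 0.0433), and ADI1, of the salvage pathway, with that scaling (0.12, adjusted p = 0.0340). Without the trend and robust settings of limma 3 genes fell. ENOPH1, of the salvage pathway, was among the 5 (adjusted p = 0.0257, limma) but not by DESeq2 (adjusted p = 0.0695), and MAT2B, the regulatory subunit of MAT2A, stood at 76.3% of its control level. MTRR, which reactivates methionine synthase, fell from 2448 and 2529 to 1585 and 1528 (log2 fold change -0.68, SE 0.0515, adjusted p = 2.42e-15). MAT2A, which makes S-adenosylmethionine, stood at 72.2% of its control level (adjusted p = 2.20e-14) and MTAP, which clears the methylthioadenosine left by SRM and SMS, at 74.1% (adjusted p = 1.15e-06). AHCY, ADI1, MAT2A, MAT2B, MTAP, ENOPH1, PYCR1, ALDH18A1, SLC7A1, ASL, SLC3A2 and DHPS were named after their values were seen. MAOA, OAZ3, AZIN2, EIF5A, EIF5AL1, ARG1 and ARG2 also stand outside the naming rule given below.

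The hypusine list covers the modification of the translation factor eIF5A, which starts from spermidine. Its median log2 fold change was 0.016. Of its 5 tested genes 1 rose and 0 fell, beside 20.3% and 21.9% of all genes tested. The 0 holds for an unadjusted p under 0.05 from limma and for an adjusted p from edgeR and DESeq2. DOHH, which completes hypusine, rose from 1083 and 1006 to 1333 and 1362 (log2 fold change 0.37, SE 0.0648, adjusted p = 6.26e-06, limma). That call was lost without the trend and robust settings of limma. The lowest of the others, EIF5A2, had a log2 fold change of -0.35 (SE 0.213, adjusted p = 0.189). DHPS, the enzyme that uses spermidine, had between 15.4 and 33.8 normalized counts in each library and an adjusted p of 0.542 (limma). Of its exonic bases 42.2% are shared, mainly with a gene on the same strand, so its reads are uncertain. EIF5A itself was at 8262 and 8014 in sh-NC and at 8362 and 8095 in sh-IRF1, values that overlap, and its reads are hard to separate from the near-identical EIF5AL1. Among the paralogs of the 10 genes, SAT2, an acetyltransferase that resembles SAT1, rose from 50.3 and 38.0 to 88.5 and 98.4 (log2 fold change 1.08, SE 0.263, adjusted p = 0.000750), and OAZ3 and AZIN2 did not pass the test (adjusted p = 0.413 and 0.425).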

How the data were processed

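RNA sequencing of 2 sh-NC and 2 sh-IRF1 libraries of MV4-11 cells was used. The deposited values are a normalized signal per gene: the authors divided reads by 1 size factor per library, which is also the unit called normalized count here. The submitters' processing notes name HISAT2 (2.0.5) and hg38, and the methods name DESeq2; the counting tool, annotation and strand setting are not given in the sources used here. All values (100%) were whole multiples of a library's step within 0.001 reads, so reads were recovered. Of the columns, 0 belonged to other samples. Symbols matched 23456 of 23622 identifiers. Genes reaching 10 normalized counts in 2 or more libraries were tested by limma (3.58.1, R 4.3.3; trend and robust) on log2(value + 1), a scale that understates changes of low genes, with Benjamini-Hochberg adjustment over 14120 genes. edgeR (4.0.16) and DESeq2 (1.42.0) were run on recovered reads. Lengths, positions and overlaps came from GENCODE 44 on GRCh38, and promoter windows from RefSeq. Named pseudogenes of the members held at most 0.204% of a member's reads. On simulated data limma recovered 90.6% of 106 genes changed by 0.5 on the log2 scale and 100% of 94 changed by 1, among 14045 genes. The simulation changed only well-counted genes and used the same spread between replicates for every gene. It therefore does not cover low genes such as PAOX or changes smaller than 0.5.

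The members and lists were chosen with earlier results of these data known. All members were named with every library's value. From each related list, every gene past an adjusted p under 0.05 and a log2 fold change beyond 0.5 was named, or otherwise the top gene by p for each direction, and IRF1 and MYC were named as well. Of the related genes, 15 of 52 were not tested here. Alternatives covered pseudocount, filter, scaling, test, the trend and robust settings of limma, a replicate block, the minimum fold change, gene length and leaving out each library.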

Additional observations from a re-analysis of the deposited data

How the results depend on the processing

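The signs of ODC1, AMD1, SRM, SMS, OAZ1, OAZ2, PAOX and SMOX held under all 15 alternatives to the fit. SMS and OAZ1 passed an adjusted p of 0.05 in all 15, ODC1 and SRM in 14, AMD1 in 12 and PAOX in 11. Signs turned, with no call on either side, for AZIN1 (0.0304 when scaled by total reads and, with a library left out, from -0.0282 to 0.0002, the latter without sh-IRF1 replicate 1) and SAT1 (from -0.11 without sh-NC replicate 2 to 0.22 without sh-NC replicate 1). Without the trend and robust settings of limma, 2 members fell, as did 1282 of all genes, and 1245 rose. With a log2 fold change beyond 0.5, 2 members fell, and 1067 of all genes fell and 1168 rose; with that fold change and an unadjusted p, 2 members fell, and 1182 genes fell and 1345 rose. Scaling by total reads moved the members' median log2 fold change to -0.12 and gave 2647 genes that fell and 3428 that rose, more rises than falls. With each library left out in turn, between 4 and 6 members fell and 0 rose, the members' median ran from -0.18 to -0.15, between 2405 and 2744 of all genes fell and between 2037 and 2685 rose. The cause of these differences was not tested. The deviations of same-numbered libraries had a correlation of -0.0154 over 14120 genes. It was 0.0113 over the 9987 genes with a mean of at least 100 and 0.0383 over the 4227 with at least 1000. With 2 libraries per group this cannot show whether same-numbered libraries share a culture or a batch. With the replicate block, 6 members fell, 0 rose and their median log2 fold change was -0.16. Of all genes 3147 then fell and 2903 rose. RPKM values used a gene's union of exons, and every level rose with the shorter canonical length. With 2 libraries per group, the spread of a single gene is poorly known.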
